A study of Rattus norvegicus with 20 samples.

Results

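The Rab small GTPases are described here in whole blood of Zucker rats. The members were all transcript clusters of the array, each a set of probes along 1 gene, whose platform annotation gave 1 symbol made of Rab followed directly by a digit. Of 49 such symbols, 7 belong to Rab partners (Rab3il1, Rab11fip4, Rab11fip3, Rab3gap2, Rab11fip1, Rab5if and Rab3ip) and were left out, which gave 42 Rab genes among 14557 named genes. Each of the 42 was measured by 1 row of the table, so no choice between rows was needed. A further 2 rows, shared by Rab1b and Rab1a and by Rab5a and Rab5al1, carry several symbols and were not used here.

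The study set male lean control rats against male Zucker diabetic fatty (ZDF) rats, a strain in which obesity and diabetes are inherited. The comparisons with lean control thus also set lean rats against ZDF rats. The paper describes a diet and drug intervention in diabetic rats but does not name the treated groups. All groups carry the strain label Zucker. Of the 20 arrays, 1 per rat, 5 were from the group labelled rosiglitazone, 5 from the group labelled resveratrol, 5 from the group labelled obese and 5 from the group labelled lean control. Rosiglitazone is an insulin-sensitizing drug that binds the nuclear receptor PPAR gamma, and resveratrol is a plant polyphenol; the labels give no dose, route or duration for either. Lean control rats were kept on standard chow, while a stock diet was given to obese rats for 6 weeks, so the effects of diet and of obesity cannot be told apart, and the labels do not state the diet of the treated rats. The rats were fed ad libitum and housed singly, and the RNA came from whole blood that had been frozen and then thawed on ice.

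Rab proteins are small GTPases that sit on the cytoplasmic face of intracellular membranes and mark which compartment a membrane is. In the GTP-bound state, which is set by guanine nucleotide exchange factors (GEFs), a Rab recruits effectors such as motors, tethers and lipid kinases, and GTPase-activating proteins (GAPs) return it to the GDP-bound state. In blood cells the family is known for phagosome maturation in neutrophils and monocytes, for the release of cytotoxic granules by lymphocytes and for granule secretion by platelets. In muscle and fat cells, Rab10, Rab8a, Rab13 and Rab14 are known for the insulin-driven delivery of the glucose transporter GLUT4 to the cell surface.

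The values are log2 intensities, and a difference of 1 on this scale is a 2-fold change. The array medians ran from 2.64 to 2.78 in the rosiglitazone group, 2.65 to 2.72 in the resveratrol group, 2.64 to 2.70 in the obese group and 2.54 to 2.66 in the lean control group. Lean control replicate 1 carried a skeletal muscle signal, with a mean of 6.40 over 6 muscle marker genes, against at most 3.59 on any other array. Against lean control, 9 of 9 B cell and 14 of 17 T cell marker genes passed the test as lower in the rosiglitazone group, and 6 of 12 neutrophil and 4 of 13 monocyte marker genes as higher. Of all tested genes, 14.5% passed as lower and 4.17% as higher in that comparison. In the resveratrol group 6 of 9 B cell and 7 of 17 T cell markers passed as lower than in lean control. As higher, 3 of 12 neutrophil markers passed, where 13.2% of all genes passed in either direction. In the obese group 2 of 9 B cell and 3 of 17 T cell markers passed as lower than in lean control. As higher, 2 of 12 neutrophil and 4 of 13 monocyte markers passed, where 2.95% of all genes passed in either direction. In whole blood, fewer cells of a type and less RNA per cell cannot be told apart, and the part of cell numbers in the Rab values was not tested beyond the correlations with cell markers within groups.

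Of the 42 Rab genes, 33 (78.6%) had a mean over the 20 arrays at or above 2.64, the median over all transcript clusters, and were tested. Of all named genes, 8499 (58.4%) passed this filter. The 9 below it were Rab36, Rab40b, Rab17, Rab34, Rab9b, Rab7b, Rab15, Rab33a and Rab3c, for which only values are given. The highest means belonged to Rab10 (9.60), Rab7a (9.40), Rab11a (8.42), Rab5c (7.77) and Rab21 (7.68), but each gene has probes of its own, so this order is not an order of RNA amounts. Rab10, Rab11a, Rab5c and Rab7a varied little from rat to rat within a group, except Rab7a in the resveratrol group (SD 0.233, percentile 30.7). The pooled within-group SD of Rab10 was 0.0634, at percentile 0.0471 of the 8499 tested genes, and that of Rab11a was 0.0982, at percentile 0.400. At the other end, Rab4a had an SD of 0.667, at percentile 99.5. The median SD of the 33 Rab genes was 0.273, against 0.303 over all tested genes. Within the resveratrol group alone it was 0.310 against 0.297. The tested Rab genes also had a higher median level than all tested genes, 4.99 against 3.95.

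Few Rab genes passed a test between the groups. Each pair of groups was compared with limma, and p values were adjusted over all 8499 genes, with 0.05 as the threshold. Between the rosiglitazone and the lean control group, 3 of 33 Rab genes passed the test (Rab27b and Rab14 lower, Rab5c higher), a share of 9.09% against 18.6% of all genes tested. Among all genes 14.5% passed as lower and 4.17% as higher. Between the resveratrol and the lean control group, 1 of 33 passed (Rab5c, higher), or 3.03% against 13.2% of all genes, of which 2.73% passed as higher. Between the obese and the lean control group, 0 of 33 passed, against 2.95% of all genes, and 4 of 33 had an unadjusted p under 0.05, against 24.1% of all genes. Between the rosiglitazone and the obese group, 0 of 33 passed, against 0.165% of all genes, and 2 had an unadjusted p under 0.05, against 12.1% of all genes. Between the resveratrol and the obese group, 0 of 33 passed, as did 0% of all genes, and 1 had an unadjusted p under 0.05, against 10.3% of all genes. Between the rosiglitazone and the resveratrol group, 0 of 33 passed, against 0.0471% of all genes, and 2 had an unadjusted p under 0.05, against 9% of all genes. Over the 4 groups together, the moderated F test of limma called 1 Rab gene, Rab27b (3.03%), against 11.4% of all genes. The shares over all genes rest in part on single rats. Between rosiglitazone and lean control, 1585 genes passed with all rats, against 785 without rosiglitazone replicate 5 and 954 and 994 without lean control replicates 1 and 4, and the Rab genes that passed were 3, 1 and 1 without these rats. The 3 without rosiglitazone replicate 5 are not the same 3 as with all rats, since Rab14 did not pass there. Between resveratrol and lean control, 1118 genes passed with all rats, against 318 and 647 without resveratrol replicates 1 and 3 and 343, 587 and 317 without lean control replicates 1, 2 and 4, with 0 Rab genes in each of these fits. In the F test 966 genes passed with all rats, against 299, 374 and 306 without lean control replicates 1, 2 and 4, with 1 Rab gene in each. The comparisons with lean control share the same 5 lean control rats, so they are not independent of each other.

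**Figure D1:**
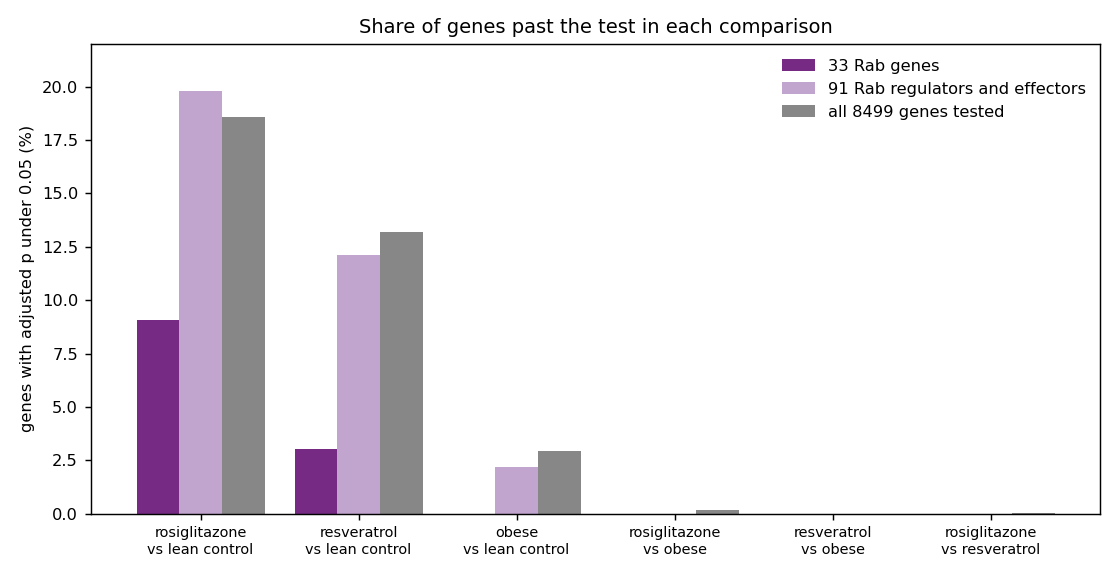
Percentage of genes with an adjusted p under 0.05 (vertical axis) in 6 comparisons of 5 rats with 5 rats (horizontal axis), for the 33 Rab genes, 91 regulators and effectors of Rab proteins and all 8499 genes tested. In the rosiglitazone group against lean control the shares were 9.09%, 19.8% and 18.6%, and no Rab gene passed in the 4 comparisons to the right.

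The differences of the Rab genes were also small. Against lean control, the median size of the log2 difference over the 33 Rab genes was 0.16 in the rosiglitazone group, 0.17 in the resveratrol group and 0.15 in the obese group, where the medians over all tested genes were 0.28, 0.27 and 0.21. Against the obese group it was 0.14 for rosiglitazone and 0.09 for resveratrol, with 0.17 and 0.16 over all genes. The direction was mixed, with 14 of 33 higher in the rosiglitazone group, 13 of 33 higher in the resveratrol group and 16 of 33 higher in the obese group than in lean control. The 95% interval of the difference lay within 1 on the log2 scale, so a change of 2-fold or more lay outside it, for all 33 Rab genes between obese and lean control and for 31 of 33 between rosiglitazone and lean control, the exceptions being Rab27b and Rab6b. The interval lay within 0.5 for 18 of 33 between obese and lean control, 12 of 33 between rosiglitazone and lean control and 13 of 33 between resveratrol and lean control.

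The Rabs of secretory granules gave the largest difference of the family. Rab27b, which in mouse platelets is known for dense granule secretion, was 2.13-fold lower in the rosiglitazone group than in lean control. The 5 rosiglitazone rats had log2 values of 6.86, 6.63, 6.90, 7.0 and 5.73. The 5 resveratrol rats had 7.04, 7.14, 7.47, 7.46 and 7.26. The 5 obese rats had 7.69, 7.47, 7.44, 6.72 and 7.34, and the 5 lean control rats had 7.66, 8.10, 7.71, 7.96 and 7.14. Every rosiglitazone rat lay below every lean control rat and below every resveratrol rat, while the resveratrol and obese rats overlapped with each other and with lean control. Of all tested genes, 9.62% lay lower without overlap in rosiglitazone against lean control, and 0.565% in rosiglitazone against resveratrol. The log2 difference between rosiglitazone and lean control was -1.09 (SE 0.22, adjusted p = 0.00319), and the F test over the 4 groups gave F = 8.39 (adjusted p = 0.0168).

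Rab27b did not pass the test between other pairs of groups. It differed by -0.71 between rosiglitazone and obese (SE 0.22, adjusted p = 0.215) and by -0.65 between rosiglitazone and resveratrol (SE 0.22, adjusted p = 0.370), the smallest p of any Rab gene in both. The value was -0.44 between resveratrol and lean control (adjusted p = 0.171) and -0.38 between obese and lean control (adjusted p = 0.258). Rosiglitazone replicate 5 had the lowest Rab27b value, and without it the difference between rosiglitazone and lean control was -0.87 (adjusted p = 0.0111).

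The 250 bases before the annotated start of Rab27b and, for comparison, of Rab5c, which differed in the other direction, are printed from RefSeq (GRCr8, the strand of the gene, 5′ to 3′). Capitals in Rab27b mark TGANTCA, the site of AP-1 and NF-E2 factors, 130 bases before the start. Capitals in Rab5c mark GGGCGG, the GC box, and GAGGAA, the core of sites of PU.1, both read there on the opposite strand.
Rab27b, chr18:65938584-65938833, minus strand: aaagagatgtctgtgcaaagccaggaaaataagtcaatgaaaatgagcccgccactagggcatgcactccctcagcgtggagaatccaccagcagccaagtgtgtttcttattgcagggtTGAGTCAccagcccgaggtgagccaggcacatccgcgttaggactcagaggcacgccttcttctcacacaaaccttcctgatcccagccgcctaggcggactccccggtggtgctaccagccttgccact
Rab5c, chr10:86166450-86166699, minus strand: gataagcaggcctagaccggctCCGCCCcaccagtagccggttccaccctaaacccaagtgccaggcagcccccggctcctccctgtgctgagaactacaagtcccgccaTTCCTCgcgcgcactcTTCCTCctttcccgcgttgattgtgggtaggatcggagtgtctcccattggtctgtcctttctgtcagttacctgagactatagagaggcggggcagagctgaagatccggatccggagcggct
The Rab27b stretch is 56.0% G and C and the Rab5c stretch 60.4%, against a median of 51.2% over all promoters of this length. On either strand, TGANTCA was found in 4 of 35 Rab promoters (Rab27b, Rab9a, Rab4b and Rab34, 11.4%) and in 6.34% of all 33469 promoters in the table. A match of letters is not a measured site, and the arrays do not measure binding.

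**Figure D2:**
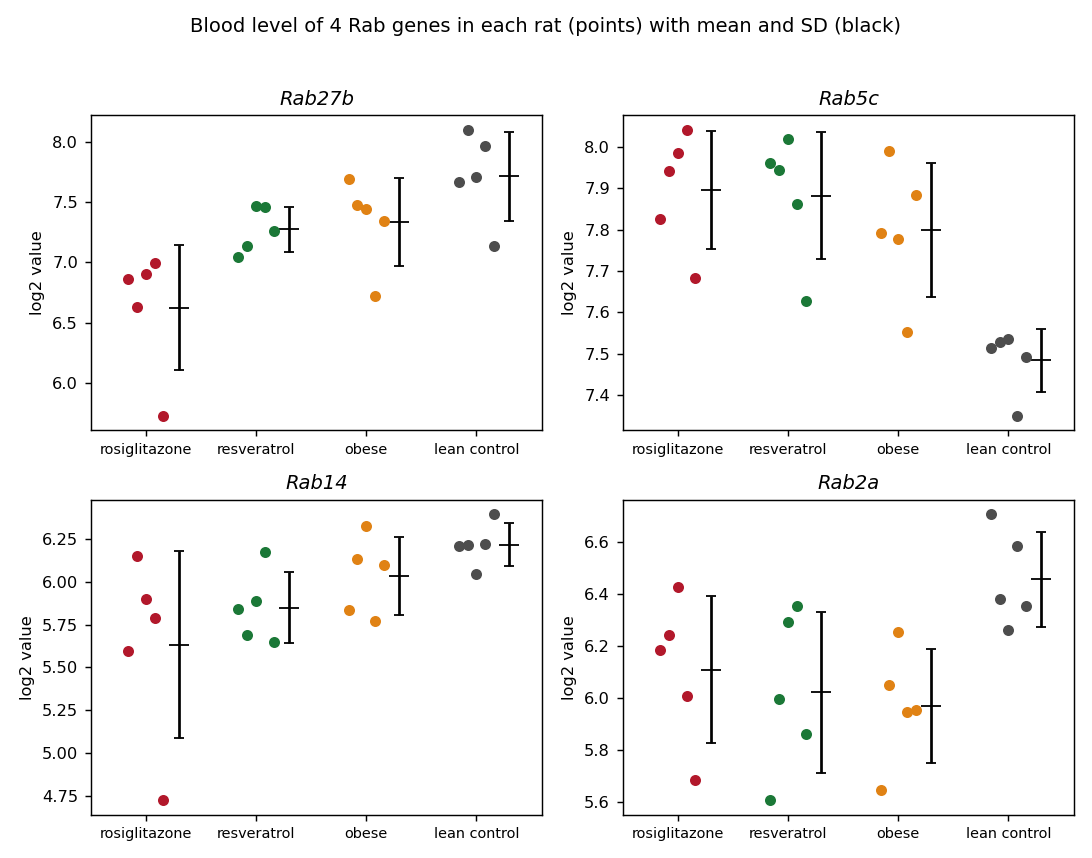
Log2 values (vertical axes) of Rab27b, Rab5c, Rab14 and Rab2a in each rat (points) of the 4 groups (horizontal axes), with the group mean and SD in black (n = 5 each). Every rosiglitazone rat lies below every lean control rat for Rab27b, and all rats of the other groups lie above every lean control rat for Rab5c.

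Platelet marker genes were also lower in the rosiglitazone group than in lean control. The mean of 12 platelet markers was 7.53 ± 0.24 in the rosiglitazone group, 7.89 ± 0.13 in the resveratrol group, 7.69 ± 0.12 in the obese group and 8.09 ± 0.14 in the lean control group (SD, n = 5 each). Its range was 7.26 to 7.75 in rosiglitazone, 7.77 to 8.08 in resveratrol, 7.51 to 7.84 in obese and 7.86 to 8.21 in lean control rats. Against lean control, 9 of 12 platelet markers passed the test as lower in the rosiglitazone group. In the resveratrol group 2 of 12 did, and in the obese group 4 of 12. Of all genes, 14.5% passed as lower in rosiglitazone, and 13.2% and 2.95% passed in either direction in resveratrol and obese. Past the test or not, 11 of 12 markers were lower in rosiglitazone, 11 of 12 in resveratrol and 12 of 12 in obese. The defining markers were well above the filter in all groups. Pf4, platelet factor 4, averaged 10.81 ± 0.14 in rosiglitazone, 10.71 ± 0.18 in resveratrol, 10.60 ± 0.16 in obese and 11.15 ± 0.07 in lean control rats. Gp5, glycoprotein V of the von Willebrand receptor, averaged 7.29 ± 0.25 in rosiglitazone, 7.76 ± 0.23 in resveratrol, 7.47 ± 0.10 in obese and 7.99 ± 0.08 in lean control rats.

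After the group mean was subtracted from each rat, Rab27b and the platelet marker mean had a Pearson's r of 0.578 over the 20 rats (permutation p = 0.0194, adjusted p = 0.186 over 330 pairs) and a Spearman's rho of 0.394 (permutation p = 0.124, adjusted p = 0.466). Without the 2 rats farthest from the median of the platelet mean, r was 0.594. The r of Rab27b was 0.691 with the array SD (permutation p = 0.0107), -0.650 with the array median (permutation p = 0.0115) and 0.550 with the NK cell mean (permutation p = 0.0196). Without the 2 rats farthest from the median of each, r was 0.316, -0.305 and 0.237. None of these relations passed the correction. The part of platelet number or of array properties in the Rab27b difference was not tested further.

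**Figure D3:**
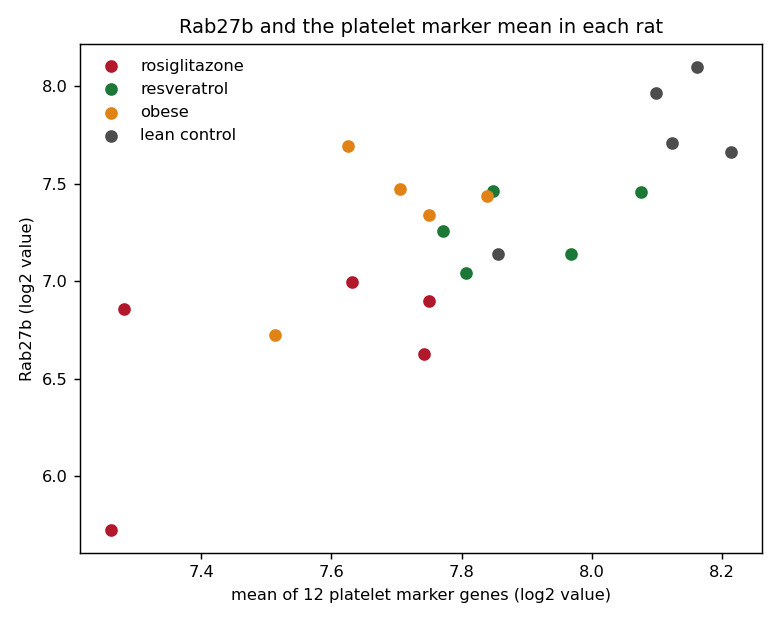
Log2 value of Rab27b (vertical axis) against the mean log2 value of 12 platelet marker genes (horizontal axis), 1 point per rat, coloured by group. The rosiglitazone rats lie at 7.26 to 7.75 of the platelet mean with Rab27b from 5.73 to 7.0, and the lean control rats at 7.86 to 8.21 with Rab27b from 7.14 to 8.10.

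The closest relative, Rab27a, which is needed for the release of lytic granules by cytotoxic lymphocytes, did not pass any test. It averaged 6.77 ± 0.30 in the rosiglitazone group, 6.83 ± 0.32 in the resveratrol group, 7.05 ± 0.17 in the obese group and 6.90 ± 0.20 in the lean control group (SD, n = 5 each). Between rosiglitazone and lean control its log2 difference was -0.14 (95% interval -0.49 to 0.21, adjusted p = 0.596). Rab3d, a Rab of secretory granules in exocrine and mast cells, averaged 4.71 ± 0.33 in rosiglitazone, 4.68 ± 0.11 in resveratrol, 4.51 ± 0.16 in obese and 4.42 ± 0.24 in lean control rats, and its difference from lean control was 0.29 in the rosiglitazone group (adjusted p = 0.202). Rab3c, a Rab of synaptic vesicles, lay below the filter with values of 1.06 to 2.44 over the 20 arrays.

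Among the Rabs of early endosomes and phagosomes, Rab5c was higher and Rab14 lower in the rosiglitazone group than in lean control. Rab5c belongs to the Rab5 trio that drives fusion of endocytic vesicles with early endosomes. The 5 rosiglitazone rats had Rab5c values of 7.83, 7.94, 7.99, 8.04 and 7.68, and the 5 resveratrol rats 7.96, 7.94, 8.02, 7.86 and 7.63. The 5 obese rats had 7.79, 7.99, 7.78, 7.55 and 7.88, and the 5 lean control rats 7.51, 7.53, 7.54, 7.35 and 7.49. All 15 rats of the 3 other groups lay above all 5 lean control rats, which was the case for 0.106% of the tested genes (9 of 8499). The gap was narrow, 7.552 in the lowest of the 15 against 7.537 in the highest lean control rat. After quantile normalization 15 of 15 still lay above, and after each array was centred on its median 12 of 15 did.

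The log2 difference of Rab5c from lean control was 0.41 in the rosiglitazone group (SE 0.13, 1.33-fold, adjusted p = 0.0303) and 0.40 in the resveratrol group (SE 0.13, 1.32-fold, adjusted p = 0.0450). In the obese group it was 0.31 (SE 0.13, 1.24-fold), which did not pass the test (adjusted p = 0.148), and the F test gave an adjusted p of 0.0775. Of all tested genes, 2.42% lay higher without overlap in rosiglitazone against lean control, 2% in resveratrol against lean control and 1.49% in obese against lean control. Rab5c differed little between the groups other than lean control, by 0.10 between rosiglitazone and obese (95% interval -0.17 to 0.37), 0.08 between resveratrol and obese (-0.19 to 0.35) and 0.01 between rosiglitazone and resveratrol (-0.25 to 0.28). The calls are near the threshold. For rosiglitazone against lean control the call was lost with arrays centred on their medians (0.32, adjusted p = 0.108), with only the 10 arrays of these groups in the fit (adjusted p = 0.0566) and without each of 6 single rats (lean control replicates 1, 2 and 4 and rosiglitazone replicates 2, 3 and 4, with adjusted p up to 0.0777). For resveratrol against lean control it was lost in 9 of 10 fits that left out 1 rat, with adjusted p up to 0.108, and passed only without resveratrol replicate 5 (adjusted p = 0.0383). It was also lost in 4 of 8 other settings, without the filter (adjusted p = 0.0654), with arrays centred on their medians (0.33, adjusted p = 0.115), with only the 10 arrays of these groups (adjusted p = 0.0662) and with the replicate number as a block (adjusted p = 0.0554).

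Rab14, known for traffic between the Golgi and endosomes and for phagosome maturation, had values of 5.59, 6.15, 5.90, 5.79 and 4.72 in the rosiglitazone rats. The resveratrol rats had 5.84, 5.69, 5.89, 6.17 and 5.65, the obese rats 5.84, 6.13, 6.33, 5.77 and 6.10, and the lean control rats 6.21, 6.22, 6.04, 6.22 and 6.40. The rosiglitazone and lean control rats overlapped, since rosiglitazone replicate 2 (6.15) lay above lean control replicate 3 (6.04). The log2 difference was -0.59 (SE 0.20, 1.5-fold lower, adjusted p = 0.0383), and it was -0.40 between rosiglitazone and obese (SE 0.20, adjusted p = 0.416). Without rosiglitazone replicate 5, which had the lowest value, the difference from lean control was -0.36 (adjusted p = 0.131), and the call was also lost without rosiglitazone replicate 1 (adjusted p = 0.0600) and without any of lean control replicates 1, 2, 4 and 5 (adjusted p = 0.0674 to 0.0731). Quantile normalization gave -0.43 (adjusted p = 0.121), the fit without the filter an adjusted p of 0.0550 and the fit of these 10 arrays alone 0.0767. Within groups, Rab14 and the platelet marker mean had a Pearson's r of 0.671 (permutation p = 0.00507, adjusted p = 0.0984) and a rho of 0.668 (permutation p = 0.00753, adjusted p = 0.160), and r was 0.611 without the 2 rats farthest from the median. The r of Rab14 was 0.648 with the array SD (permutation p = 0.0206, adjusted p = 0.186) and 0.615 with the T cell mean (permutation p = 0.0145, adjusted p = 0.161).

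The other early endosome Rabs did not pass any test. Rab21, which carries integrins through early endosomes, averaged 7.69 ± 0.26 in rosiglitazone, 7.69 ± 0.07 in resveratrol, 7.62 ± 0.16 in obese and 7.71 ± 0.13 in lean control rats. Its largest difference was -0.09, between obese and lean control (95% interval -0.37 to 0.19). Rab31, which moves cargo from the trans-Golgi network to endosomes, averaged 6.84 ± 0.29 in rosiglitazone, 6.67 ± 0.19 in resveratrol, 6.64 ± 0.14 in obese and 6.48 ± 0.21 in lean control rats, and its difference between rosiglitazone and lean control was 0.35 (adjusted p = 0.107). Rab20, a Rab of phagosomes in macrophages, averaged 2.8 ± 0.32 in rosiglitazone, 2.81 ± 0.29 in resveratrol, 2.8 ± 0.17 in obese and 2.48 ± 0.22 in lean control rats, close to the filter. Rab34 lay below it, with values of 1.80 to 3.19.

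The Rabs of recycling endosomes and of transport to the cell surface include the genes of the family that varied least between rats. Rab10 had values of 9.47 to 9.59 in the rosiglitazone rats, 9.58 to 9.73 in the resveratrol rats, 9.56 to 9.69 in the obese rats and 9.5 to 9.69 in the lean control rats, so that all 20 rats lay within 9.47 to 9.73. The 95% interval of its difference was -0.30 to 0.18 between rosiglitazone and obese, -0.21 to 0.26 between resveratrol and obese and -0.23 to 0.27 between obese and lean control. Rab11a, the standard marker of recycling endosomes, lay between 8.25 and 8.62 in all 20 rats, with means of 8.39 in rosiglitazone, 8.43 in resveratrol, 8.52 in obese and 8.36 in lean control. Its difference between obese and lean control was 0.15 (95% interval -0.10 to 0.41, adjusted p = 0.447).

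Rab8a, which directs exocytic vesicles to the plasma membrane, averaged 7.39 ± 0.10 in rosiglitazone, 7.36 ± 0.29 in resveratrol, 7.51 ± 0.11 in obese and 7.45 ± 0.12 in lean control rats. Of the 9 tested genes of this class 0 passed in any comparison, and their differences from lean control ran from -0.36 to 0.47 in the rosiglitazone group, -0.28 to 0.09 in the resveratrol group and -0.26 to 0.15 in the obese group. Rab25, a Rab11 relative of epithelial cells, had the third smallest p between rosiglitazone and resveratrol, with 0.45 (SE 0.24, adjusted p = 0.577). Rab4a, of the fast recycling route, spread from 1.48 to 4.13 over the 20 rats. Its SD within lean control was 0.957, at percentile 99.8 of the tested genes, but 0.242 in the obese group. Rab17 and Rab15 lay below the filter, with values of 1.99 to 3.33 and 1.60 to 2.85.

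Among the Rabs of late endosomes, lysosomes and autophagosomes, Rab7a, which directs late endosomes to lysosomes, averaged 9.36 ± 0.11 in rosiglitazone, 9.36 ± 0.23 in resveratrol, 9.45 ± 0.07 in obese and 9.45 ± 0.08 in lean control rats. Its difference between obese and lean control was 0.01 (95% interval -0.24 to 0.26). Rab9a, which returns cargo from late endosomes to the trans-Golgi network, had 6.41, 6.97, 6.91, 6.92 and 6.95 in the resveratrol rats and 6.97, 7.25, 7.07, 7.03 and 6.98 in the obese rats. These groups did not overlap, as was the case for 1.09% of the tested genes lower in resveratrol. The difference of -0.23 did not pass the test (SE 0.16, adjusted p = 0.630).

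Rab24, which takes part in the clearance of autophagosomes, was the most even gene of the family within lean control and not in the other groups. The lean control rats had 4.57, 4.54, 4.51, 4.57 and 4.54, an SD of 0.0249 at percentile 0.0353 of the tested genes. The SD was 0.526 in rosiglitazone, 0.374 in resveratrol and 0.274 in obese rats, at percentiles 89.8, 70.1 and 55.8. This spread was picked out after its values were seen and was not tested. The obese rats had 3.75, 4.19, 4.32, 4.28 and 4.48, all below the lean control rats, as was the case for 5.01% of the tested genes, and the difference of -0.34 did not pass the test (SE 0.14, adjusted p = 0.163). Rab32 and Rab38, known for lysosome-related organelles such as melanosomes, averaged 3.89 ± 0.33 and 3.42 ± 0.60 in rosiglitazone, 3.81 ± 0.48 and 3.30 ± 0.37 in resveratrol, 3.56 ± 0.28 and 3.31 ± 0.18 in obese and 3.42 ± 0.45 and 3.28 ± 0.44 in lean control rats. Rab36, Rab9b and Rab7b lay below the filter, with means of 2.53, 2.38 and 2.29.

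Among the Rabs of the endoplasmic reticulum and the Golgi, Rab2a had the smallest p of the family between obese and lean control. Rab2a is known for transport between these compartments and for granule formation. The obese rats had values of 5.65, 6.05, 6.25, 5.95 and 5.95, and the lean control rats 6.71, 6.38, 6.26, 6.59 and 6.35. The groups did not overlap, but the highest obese rat (6.25) and the lowest lean control rat (6.26) lay next to each other. The difference of -0.49 (SE 0.15, 1.40-fold lower) did not pass the test (adjusted p = 0.0711). Rab2a passed in 3 of 8 other settings and in 0 of 10 fits that left out 1 rat. The 3 were arrays centred on their medians (-0.56, adjusted p = 0.0489), the stricter filter (adjusted p = 0.0344) and a trended robust prior (adjusted p = 0.0355). Quantile normalization gave -0.38 (adjusted p = 0.145). The adjusted p was 0.143 with all 20 arrays, 0.135 with the replicate block and 0.103 without the filter. Within groups Rab2a followed the array median (r = -0.836), which averaged 2.60 in lean control and 2.67 in obese rats. The part of the array median in the difference was not tested. The rosiglitazone rats averaged 6.11 ± 0.28 and the resveratrol rats 6.02 ± 0.31, with differences from lean control of -0.35 (adjusted p = 0.146) and -0.44 (adjusted p = 0.0810).

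The other Golgi Rabs did not pass either. Rab2b, a close relative of Rab2a, differed by -0.43 between rosiglitazone and obese (SE 0.20, adjusted p = 0.385). Rab43, for transport from the endoplasmic reticulum to the Golgi, averaged 5.91 ± 0.36 in resveratrol and 5.45 ± 0.24 in obese rats, a difference of 0.46 (SE 0.20, adjusted p = 0.430), the smallest p of the family in that comparison. Rab18, known from lipid droplets and the endoplasmic reticulum, averaged 5.60 ± 0.32 in resveratrol and 5.91 ± 0.22 in obese rats, a difference of -0.30 (SE 0.17, adjusted p = 0.541). Rab6b, a Rab6 form of Golgi transport, averaged 3.74 ± 0.68 in rosiglitazone, 3.63 ± 0.31 in resveratrol, 3.27 ± 0.14 in obese and 3.18 ± 0.28 in lean control rats. Rab19, Rab33b and Rab30 had means of 4.70, 3.72 and 2.93 over the 20 arrays, and Rab33a lay below the filter with 2.04.

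In the last class, Rab40c, a Rab with a SOCS box that joins a ubiquitin ligase, had values of 2.85, 3.50, 3.22, 3.09 and 2.23 in the resveratrol rats and 3.41, 3.40, 3.89, 3.35 and 3.67 in the lean control rats. The difference of -0.56 (SE 0.21) did not pass the test (adjusted p = 0.0762), nor did those of -0.38 between resveratrol and obese (adjusted p = 0.543) and of 0.47 between rosiglitazone and resveratrol (adjusted p = 0.525). Rab28 and Rab23, both known from cilia, averaged 5.66 ± 0.44 and 3.56 ± 0.29 in rosiglitazone, 5.74 ± 0.16 and 3.48 ± 0.62 in resveratrol, 5.57 ± 0.09 and 3.54 ± 0.36 in obese and 5.84 ± 0.27 and 3.65 ± 0.36 in lean control rats. Rab40b, with a mean of 2.48, lay below the filter.

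**Figure D4:**
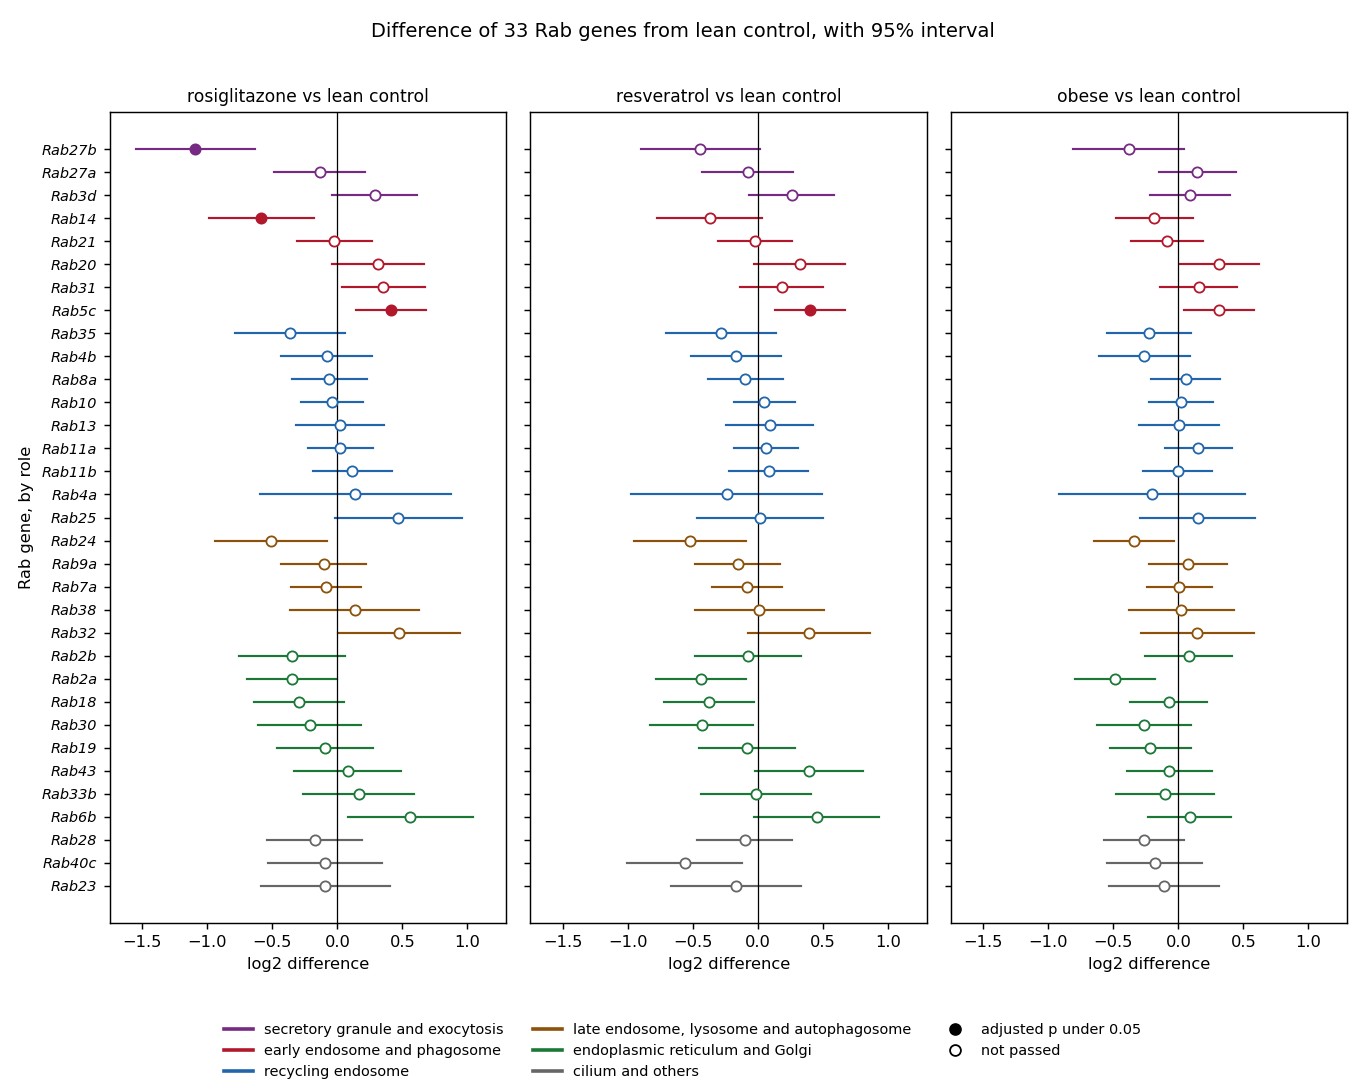
Log2 difference from lean control (horizontal axes) of the 33 tested Rab genes (rows, coloured by role) in the rosiglitazone, resveratrol and obese groups, with 95% intervals. Filled points passed the test, which were Rab27b, Rab14 and Rab5c in rosiglitazone and Rab5c in resveratrol.

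The genes that load, activate, switch off or read Rab proteins were counted from 4 lists, of which 91 genes passed the filter. Between rosiglitazone and lean control, 18 of 91 passed the test (19.8%, beside 18.6% of all genes), 16 lower and 2 higher. Between resveratrol and lean control, 11 of 91 passed (12.1%, beside 13.2%), all lower. Between obese and lean control, 2 of 91 passed (2.20%, beside 2.95%), both lower. Over all tested genes the median difference from lean control was also negative, -0.0901 in rosiglitazone, -0.0850 in resveratrol and -0.0829 in obese. In the comparisons with the obese group and between rosiglitazone and resveratrol, 0 of 91 passed. Leaving out rosiglitazone replicate 5 reduced the first count to 10, and single lean control or resveratrol rats changed the second to between 5 (without resveratrol replicate 1) and 18 (without resveratrol replicate 4).

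Of 6 genes of the Rab cycle that handle the lipid anchor or GDP-bound Rabs, 5 were lower in rosiglitazone than in lean control. Chm and Chml passed the test as lower there, where 14.5% of all genes did. Chm and Chml encode the Rab escort proteins that present new Rabs for prenylation. Chm lay between 4.28 and 5.28 in rosiglitazone rats, 4.48 and 5.67 in resveratrol rats, 5.29 and 5.77 in obese rats and 5.57 and 6.29 in lean control rats. Its difference from lean control was -1.11 in rosiglitazone (SE 0.21, adjusted p = 0.00208) and -0.89 in resveratrol (SE 0.21, adjusted p = 0.0137). Chml differed by -0.89 in rosiglitazone (SE 0.27, adjusted p = 0.0230).

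Of 23 GEF genes, 4 passed the test as lower and 1 as higher in rosiglitazone against lean control, and 4 as lower in resveratrol. Of all genes, 14.5% passed as lower and 4.17% as higher in rosiglitazone, and 13.2% in either direction in resveratrol. Past the test or not, 13 of 23 were lower in rosiglitazone and 12 of 23 in resveratrol. Rab3ip, an activator of Rab8, averaged 6.35 ± 0.50 in rosiglitazone, 6.77 ± 0.41 in resveratrol, 7.04 ± 0.21 in obese and 7.58 ± 0.30 in lean control rats. Its difference from lean control was -1.23 in rosiglitazone (adjusted p = 0.00157) and -0.81 in resveratrol (adjusted p = 0.0223). Dennd6a, an activator of Rab14, differed from lean control by -0.76 in rosiglitazone (adjusted p = 0.00374) and by -0.61 in resveratrol (adjusted p = 0.0200). Ric1 (-0.59) and Dennd4b (-0.59) were also lower in rosiglitazone, and Trappc3 (-0.66) and Dennd4b (-0.57) in resveratrol. Rin1, an activator of Rab5, was the GEF gene that passed as higher in rosiglitazone (0.64, adjusted p = 0.0377), and it was named after its values were seen.

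Of 20 GAP genes, 14 were lower in obese than in lean control rats, and Rabgap1 and Tbc1d1 passed the test. Of all genes, 2.95% passed there in either direction. Tbc1d1 is known as a GAP of GLUT4 transport in muscle. Rabgap1 averaged 4.13 ± 0.17 in obese and 4.81 ± 0.22 in lean control rats, a difference of -0.67 (SE 0.14, adjusted p = 0.0285), and Tbc1d1 averaged 4.52 ± 0.13 in obese and 5.10 ± 0.21 in lean control rats, a difference of -0.58 (SE 0.14, adjusted p = 0.0407). Both were also lower against lean control in rosiglitazone (-0.94 and -0.78) and in resveratrol (-0.61 and -0.87). Tbc1d10c was lower (-0.74, adjusted p = 0.00934) and Tbc1d2, a GAP of Rab7, higher (0.55, adjusted p = 0.0400) in rosiglitazone, and Tbc1d14 was lower in resveratrol (-0.47, adjusted p = 0.0398). The count of 2 for obese against lean control changed to 0 without lean control replicate 1, 2 or 4 or obese replicate 1 or 4, to 1 without obese replicate 2, 3 or 5, and to 5 without lean control replicate 5. It was also 0 with quantile normalization, with all 20 arrays in the fit and with the replicate number as a block. The B cell and T cell marker means differed beside these genes, with 4.44 ± 0.24 and 5.34 ± 0.15 in obese and 5.04 ± 0.20 and 5.76 ± 0.26 in lean control rats, and their part in the 2 calls was not tested.

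Of 42 effector genes, 7 passed the test as lower in rosiglitazone than in lean control and 3 in resveratrol. Of all genes, 14.5% passed as lower in rosiglitazone and 13.2% in either direction in resveratrol. Past the test or not, 30 of 42 were lower than in lean control in both groups. Appl1, which binds Rab5 on early endosomes, averaged 4.38 ± 0.32 in rosiglitazone, 4.55 ± 0.46 in resveratrol, 4.95 ± 0.27 in obese and 5.44 ± 0.33 in lean control rats. Its difference from lean control was -1.07 in rosiglitazone (adjusted p = 0.00263) and -0.89 in resveratrol (adjusted p = 0.0138). Unc13d, the Rab27 effector of granule release, averaged 3.67 ± 0.30 in rosiglitazone and 4.26 ± 0.27 in lean control rats, a difference of -0.59 (adjusted p = 0.0151). Inpp5b (-0.95) and Gorasp2 (-0.70) were the others of the 4 smallest p in rosiglitazone, and Exoc2, an exocyst subunit (-0.85), and Gcc2, a golgin (-0.75), were lower in resveratrol.

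GC boxes were common in the promoters of the family. The shares over all promoters below are not limited to the genes tested here. No share was taken over the tested genes alone, so these counts do not show a trait particular to Rab genes. Of the 42 Rab genes, 35 had an entry in the promoter table, and 28 of these (80%) held GGGCGG on either strand within 250 bases before the start, where 30.5% of all 33469 promoters did. Rab27b was not among the 28. The PU.1 core GAGGAA was found in 10 of 35 (28.6%, against 23.3% of all) and AGGTCA, the letters that many nuclear receptors bind, in 4 (11.4%, against 14.1%). The E-box CACGTG of the lysosomal regulator Tfeb was found in 2 (5.71%, against 5.59%). The letters AGATAA, bound by the erythroid and megakaryocyte factor Gata1, were found in 0 of 35 (0%, against 10.3%). These matches are descriptions only.

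Within groups, 5 of 330 relations of a Rab gene with a cell marker mean or a property of the array passed the correction by Pearson's r. They belonged to 2 genes. Rab2a followed the array median with r = -0.836 (permutation p = 3e-05, adjusted p = 0.00660) and rho = -0.844 (permutation p = 5e-05, adjusted p = 0.0116), and it followed the array SD with r = 0.740 (permutation p = 0.00021, adjusted p = 0.0231) and rho = 0.786 (permutation p = 7e-05, adjusted p = 0.0116). With the T cell mean Rab2a had r = 0.767 (permutation p = 0.00053, adjusted p = 0.0350) and rho = 0.729 (permutation p = 0.00161, adjusted p = 0.106). Rab6b followed the NK cell mean with r = -0.822 (permutation p = 4e-05, adjusted p = 0.00660) and rho = -0.782 (permutation p = 0.00066, adjusted p = 0.0726), and the array median with r = 0.816 (permutation p = 0.00039, adjusted p = 0.0322) and rho = 0.704 (permutation p = 0.00229, adjusted p = 0.126). By rank, only the relations of Rab2a with the array median and the array SD passed among these 5. Without the 2 rats farthest from the median, r was -0.835 for Rab2a and the array median, 0.723 for Rab2a and the array SD, 0.589 for Rab2a and T cells, -0.700 for Rab6b and NK cells and 0.688 for Rab6b and the array median. After quantile normalization 0 pairs passed and after centring on the array medians 21 did, so the count depends on how the arrays are scaled. Pairs with the array median were left out of both counts, so the counts are not over the same 330 pairs. The 2 relations with the array median could not pass there. Quantile normalization also gives every array the same distribution over all rows, which limits what it can show for the array SD. Leaving out 1 rat gave 1 (without rosiglitazone replicate 5) to 11 (without lean control replicate 3).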

How the data were processed

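Whole blood RNA (100 ng per array) of 20 rats, 5 per group, was measured on Affymetrix Rat Gene 2.1 ST arrays. The authors summarised the probes with RMA (version not given in the sources used here) and deposited 1 log2 intensity per array for each of 36685 transcript clusters. Rows with 1 symbol (14824) were used, and those with several (829) or none in the annotation (21032) were set aside. Entrez identifiers linked 14670 rows to the RefSeq table of GRCr8. Genes with a mean of at least 2.64 were tested with limma 3.58.1 (R 4.3.3, lmFit and eBayes), obese against lean control on 10 arrays and all other comparisons on 20 arrays with 4 group means. The Benjamini-Hochberg adjustment ran over 8499 genes. The members and gene lists were chosen with earlier results of these data known.

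Named were, in each comparison, the Rab genes past the test or, where fewer than 3 passed, the 3 with the smallest p, the 5 with the highest mean, and up to 4 regulators or effectors per list and comparison past the test. Within-group correlations used 100000 permutations of the rats within groups. On simulated data, limma called 7.46%, 76.1% and 97% of genes changed by 0.5, 1 and 1.5 between obese and lean control, and 16.4%, 82.1% and 97% between rosiglitazone and obese (8499 genes). Alternatives were no filter, a filter at the 75th percentile, quantile normalization, centring on array medians, the other set of arrays, the mean of a gene's rows, a trended robust prior, the replicate number as a block and leaving out each rat; those for the correlations and for regulators and effectors were chosen after seeing the data. The number of arrays, 5 per group, limits the precision. Python 3.11.15, pandas 2.3.3 and matplotlib 3.10.9 were used for tables and figures.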

Additional observations from a re-analysis of the deposited data

Results flagged for a closer look

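Of 132 sets of 5 values, 1 per tested Rab gene and group, 8 held a lowest rat whose gap to the next, divided by the range, was above 0.71. Chance alone flags about 1 in 20 such sets. Rosiglitazone replicate 5 was the lowest rat for Rab21 (7.23, next 7.77, ratio 0.889), Rab28 (4.89, next 5.77, ratio 0.803) and Rab27b (5.73, next 6.63, ratio 0.712). Without this rat, Rab27b still passed the test between rosiglitazone and lean control (-0.87, adjusted p = 0.0111). Rosiglitazone replicate 2 was lowest for Rab4a (1.91, next 3.22, ratio 0.733), resveratrol replicate 1 for Rab9a (6.41, next 6.91, ratio 0.900) and obese replicate 1 for Rab13 (2.68, next 3.03, ratio 0.756). Lean control replicate 4 was lowest for Rab5c (7.35, next 7.49, ratio 0.766), and without it the difference of Rab5c from lean control was 0.38 in rosiglitazone (adjusted p = 0.0777) and 0.36 in resveratrol (adjusted p = 0.108). Lean control replicate 5 was lowest for Rab4b (4.68, next 5.14, ratio 0.748). Over all tested genes, rosiglitazone replicate 5 and resveratrol replicate 1 had the lowest median correlations with the other arrays (0.928 and 0.922, across genes, which are not independent replicates). The cause of these low values was not tested.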

How the results depend on the processing

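Rab27b stayed past the test between rosiglitazone and lean control in 8 of 8 other settings and 10 of 10 fits without 1 rat (adjusted p = 0.00119 to 0.0115), and in the F test in 7 of 7 settings and 20 of 20 such fits (adjusted p up to 0.0467). No named Rab gene changed direction in any alternative. The number of Rab genes past the test was 1 instead of 0 between obese and lean control with the 75th percentile filter, with centred arrays and with the trended robust prior; 1 instead of 3 between rosiglitazone and lean control with the 10 arrays alone; 0 instead of 1 between resveratrol and lean control without the filter, with the 10 arrays alone and with the replicate block; and 2 instead of 1 in the F test with the stricter filter, quantile normalization or the robust prior. Between resveratrol and lean control with centred arrays, Rab40c passed (-0.64, adjusted p = 0.0485) and Rab5c did not (0.33, adjusted p = 0.115). Without 1 rat these counts were 0 to 0 for obese and 1 to 3 for rosiglitazone against lean control, 0 to 2 for resveratrol against lean control and 1 to 1 in the F test.

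For regulators and effectors, the 2 calls between obese and lean control became 7 with the stricter filter, 6 with centred arrays, 5 with the robust prior, and 0 with quantile normalization, all 20 arrays or the replicate block (0 to 5 without 1 rat). The 18 for rosiglitazone against lean control became 10 to 20 without 1 rat, the 11 for resveratrol 6 with quantile normalization and 5 to 18 without 1 rat, and the 11 of the F test 6 with quantile normalization and 3 to 15 without 1 rat. The 5 within-group correlations became 0, 21, and 1 to 11 with quantile normalization, centring and 1 rat left out. The counts of 0 and 21 do not cover pairs with the array median, which the 5 do.

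Over all genes, the 251 calls between obese and lean control became 132 without the filter, 490 with the stricter filter, 135 with quantile normalization, 455 with centring, 23 with all 20 arrays, 512 with the robust prior, 75 with the replicate block and 46 to 459 without 1 rat. Without 1 rat the calls were 785 to 1648 for rosiglitazone and 317 to 1363 for resveratrol against lean control and 299 to 1102 in the F test. Quantile normalization reduced 1585 calls for rosiglitazone against lean control to 1012, 1118 for resveratrol to 415 and 966 of the F test to 544. The robust prior gave 25 instead of 14 for rosiglitazone against obese, and 4 for rosiglitazone against resveratrol became 13 with it and 7 with the stricter filter or quantile normalization. The cause of these changes was not tested.

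Rats with the same replicate number in different groups had deviations that correlated from -0.18 to 0.27 (median 0.041, 30 pairs), and those with different numbers from -0.22 to 0.23 (median -0.014, 120 pairs). Of 20 arrays, 9 correlated best with their own number, which is more than an even pick over the 30 and 120 pairs would give. The labels tie the numbers to no shared litter, batch or day, so the main fits did not pair the rats by number. The fits with the replicate number as a block are given beside them. Whether rats of equal number share some structure was not tested further. The replicate block took the calls over all genes between obese and lean control from 251 to 75. With the replicate block, Rab5c no longer passed between resveratrol and lean control (0.40, adjusted p = 0.0554), and no other call of a named Rab gene changed. The rats are separate animals, and a Rab gene that did not pass the test with 5 rats per group is not shown to be unchanged.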
